A study of Mus musculus with 22 samples.

Results

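Transcripts of 10 cyclic nucleotide phosphodiesterases were followed across the nucleus accumbens libraries: Pde1a, Pde1b, Pde1c, Pde2a, Pde4a, Pde4b, Pde4d, Pde7b, Pde8b and Pde10a. They were taken by symbol from the gene names of the deposited count table, 10 of the 24061 genes it lists. All 10 passed the filter on low counts, which kept 14564 genes for testing.

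Phosphodiesterases end cyclic nucleotide signals by hydrolysing cAMP or cGMP, and so work against adenylyl and guanylyl cyclases. The families differ in substrate and in control: Pde1 enzymes are stimulated by calcium and calmodulin, Pde2a by cGMP, Pde10a takes both nucleotides, and the Pde4, Pde7 and Pde8 enzymes prefer cAMP. In the striatum dopamine, adenosine and opioid receptors set cAMP through stimulatory and inhibitory G proteins, and Pde10a and Pde1b are known as enzymes of the medium spiny projection neurons that make up most of its nerve cells.

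RNA came from bulk nucleus accumbens, a part of the ventral striatum, of male C57BL/6J mice 7 to 9 weeks old. A total of 6 libraries were from mice on water given saline and 5 from mice on water given morphine at 20 mg/kg per day for 7 days, both labelled as having a normal microbiome. Another 6 libraries were from saline mice and 5 from mice on the same morphine schedule labelled as having a depleted microbiome, from nonabsorbable antibiotics. The labels used here name neither the antibiotics nor the route of morphine, and they number the libraries without saying how animals were pooled, so p-values measure the spread between these libraries alone.

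The libraries held between 9357299 and 15330947 counts in genes. All 12 markers of striatal projection neurons that were looked up (among them Drd1, Drd2 and Penk) were present, with a summed level of 2967 to 6769 CPM (TMM-scaled counts relative to library size) per library. All 12 markers of cortical and septal neurons were also present, at 85.2 to 1617 CPM in sum. A striatal score, the mean centred log2 CPM of the 12 striatal markers, averaged 0.19 in water saline, -0.04 in water morphine, -0.07 in antibiotic saline and -0.10 in antibiotic morphine libraries. It was lowest in antibiotic saline library 5 (-0.80) and water morphine library 4 (-0.45). A length slope, which is positive where a library has relatively more of its long transcripts, lay between 0.03 and 0.05 in the water morphine libraries and between -0.08 and -0.01 in the water saline libraries, without overlap.

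On the scale of CPM per kilobase of the longest annotated coding transcript, which allows genes to be compared, Pde1b was the most abundant of the 10 transcripts, with a mean of 392 over 22 libraries. Pde2a followed at 212 and Pde10a at 127, ahead of Pde4b at 56.2, Pde7b at 43.8, Pde8b at 39.8, Pde1a at 36.4, Pde4a at 26.6, Pde4d at 17.8 and Pde1c at 6.75. The 3 most abundant are enzymes that hydrolyse both cAMP and cGMP, and the enzymes with a preference for cAMP lay below them. Pde1a and Pde1c, which also take both, did not share this place. Pde1a lay below Pde4b, Pde7b and Pde8b, and Pde1c was the lowest of all. In total the 10 genes took 4166 ± 565 CPM (SD, n = 22) of a library, between 2915 and 5358.

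The genes differed in how much their levels varied. Pde7b spanned 2.68-fold from its lowest to its highest library, Pde10a 2.66-fold and Pde1b 2.30-fold, while Pde4d spanned 1.40-fold and Pde4b 1.48-fold. Differences between the 4 groups made up 59.6% of the variance of Pde4d, 39% of that of Pde2a, 29.1% of that of Pde1b and 28.6% of that of Pde4b, and between 8.46% and 17.9% for the other 6. Such a share is positive even where groups differ only by the scatter of their libraries. It was not tested or set against that of all genes. When the groups were ordered by their mean, the ranges of neighbouring groups overlapped for every one of the 10 genes. The lowest mean was in a group of antibiotic mice for Pde10a, Pde1b, Pde1c, Pde2a, Pde4b, Pde7b and Pde8b, in water saline mice for Pde1a and Pde4d, and in water morphine mice for Pde4a.

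**Figure D1:**
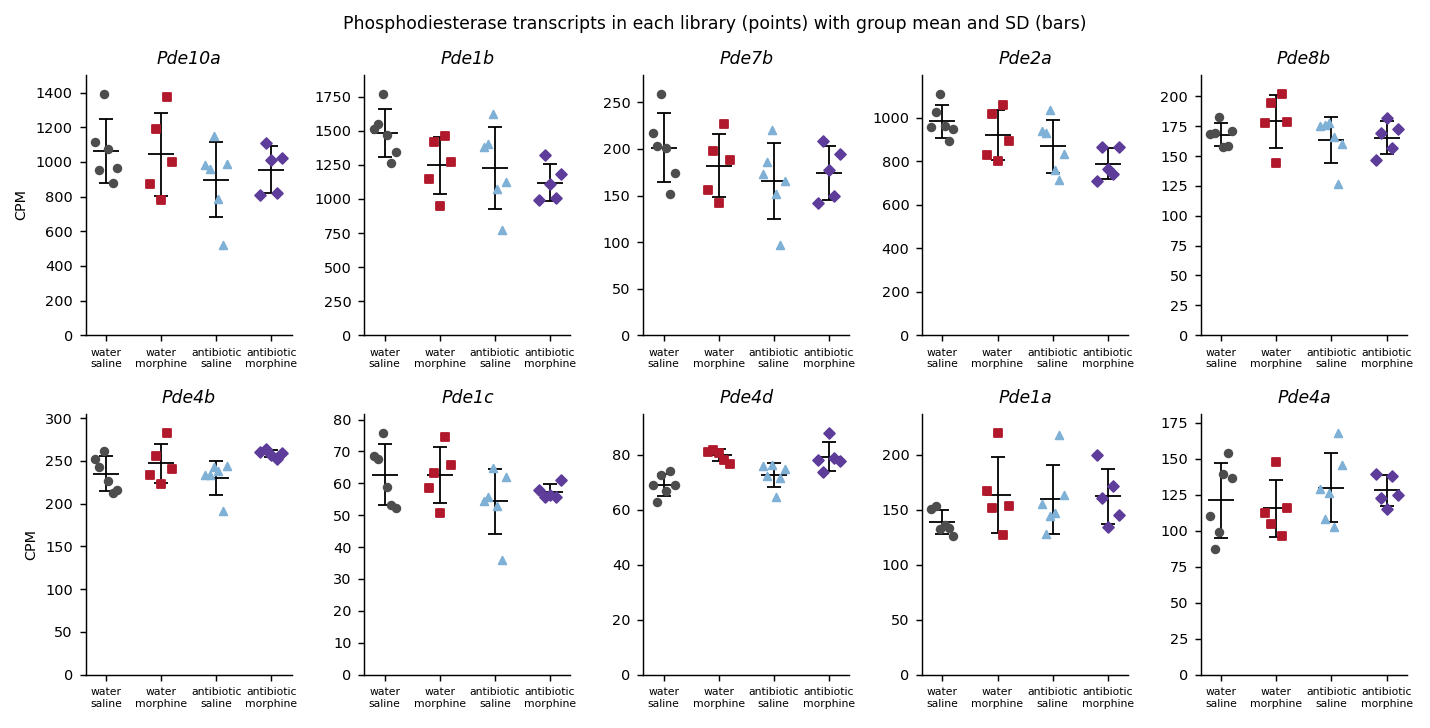
Level of each phosphodiesterase transcript in CPM (vertical axes, from 0) in the 22 libraries, by group. Points are libraries, and bars show the group mean and SD. Only Pde4d shows water morphine libraries wholly above the water saline libraries, and antibiotic saline library 5 is the lowest of all 22 for Pde10a, Pde1b, Pde1c, Pde4b, Pde7b and Pde8b.

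The first comparison put morphine against saline in mice with a normal microbiome. Pde4d, a cAMP-specific phosphodiesterase with many tethered isoforms, rose 1.16-fold, and the other 9 genes did not pass the test. Of all genes 6.58% were called in this comparison (3.91% higher), and 22.7% had an unadjusted p under 0.05, against 1 of the 10 by either rule. The median log2 change of the 10 genes was -0.01 and that of all genes tested was -0.000167, and 4 of the 10 changes were positive.

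In water saline mice Pde4d ran from 62.8 through a median of 68.8 to 73.9 CPM. The 5 water morphine libraries held 81.0, 81.8, 80.7, 78.1 and 76.7 CPM. Every morphine library lay above every saline library, as was the case, with morphine the higher, for 3.1% of all genes. The means were 68.9 ± 4.02 (SD, n = 6) and 79.7 ± 2.19 (SD, n = 5), a log2 change of 0.21 ± 0.0506 (SE; 95% interval 0.105 to 0.314; edgeR quasi-likelihood test, adjusted p = 0.0162). It was called again in all 22 fits that left out 1 library, with an adjusted p of 0.0106 to 0.0414 in edgeR. With the length slope in the design its log2 change was 0.175 ± 0.0886 (edgeR adjusted p = 0.721), and 0 of all genes were called. Markers of other cells were called lower by edgeR in the same contrast, 4 of 8 of microglia (584.7 to 631.1 CPM in sum with saline, 500.6 to 564.3 with morphine) and 3 of 8 of oligodendrocytes, and 0 of 7 of astrocytes. Lower too were 2 of 8 of striatal interneurons, with 1 higher, and 1 of 6 each of endothelium and of pericytes and smooth muscle. Their part in this result was not tested. In bulk tissue a change in the number of cells that hold a transcript and a change in its amount per cell cannot be told apart.

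The Pde1 enzymes, which couple calcium to cyclic nucleotide breakdown, had unlike estimates. Pde1b ran from 1262 through a median of 1492 to 1771 CPM in water saline mice and stood at 1144, 1417, 945, 1460 and 1271 CPM in the morphine libraries. All 5 morphine libraries were below the saline mean, but the ranges overlapped. Its log2 change of -0.25 ± 0.149 did not pass (edgeR adjusted p = 0.329). Pde1a, present in many forebrain neurons, stood at 167, 151, 219, 127 and 153 CPM with morphine and between 126 and 153 with saline (log2 change 0.24 ± 0.133, edgeR adjusted p = 0.295). The highest of the morphine libraries was library 4, which also had the lowest striatal score of its group and the lowest Pde1b. Without that library the log2 change of Pde1a was 0.109 ± 0.122 (edgeR adjusted p = 0.652). All 12 striatal markers had a negative change in this comparison (median log2 change -0.23, 0 called in edgeR, 1 at an unadjusted p under 0.05). With the striatal score in the design the log2 change was -0.042 ± 0.0414 for Pde1b and 0.0708 ± 0.0932 for Pde1a (edgeR adjusted p = 0.566 and 0.685). The part of these markers in the estimates was not otherwise tested. Without the score, Pde1c had a log2 change of -0.0023 ± 0.12.

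Among the remaining members, the estimates were -0.03 ± 0.175 for Pde10a, -0.14 ± 0.174 for Pde7b, -0.10 ± 0.0899 for Pde2a, -0.07 ± 0.145 for Pde4a, 0.07 ± 0.0659 for Pde4b and 0.09 ± 0.0821 for Pde8b, all log2 changes with SE. The 95% intervals of Pde10a ran from 0.762-fold to 1.26-fold and those of Pde7b from 0.704-fold to 1.17-fold, so changes within those bounds could not be told from none.

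The second comparison asked the same of antibiotic mice. None of the 10 genes passed in edgeR (0 of 10, against 13% of all genes), and 2 of them, Pde4b and Pde4d, had an unadjusted p under 0.05, both higher with morphine, against 27.6% of all genes. Of the microglial markers 6 of 8 and of the oligodendrocyte precursor markers 4 of 6 were called lower in edgeR. So were 1 of 6 each of endothelium and of pericytes and smooth muscle. Of the oligodendrocyte markers 2 of 8 were called higher, and the part of all these markers in the estimates was not tested. The median log2 change of the members was 0.05 and that of all genes -0.0024, and 7 of the 10 changes were positive.

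Pde4b, a cAMP-specific enzyme whose transcript is abundant in striatal neurons, ran from 191 through a median of 236 to 244 CPM in antibiotic saline mice. The 5 antibiotic morphine libraries stood at 260.4, 264, 257, 252 and 259 CPM. The groups did not overlap, as was the case, with morphine the higher, for 3.14% of all genes, and the morphine libraries lay close together (258 ± 4.39 CPM, SD, n = 5). The log2 change was 0.17 ± 0.0659 (edgeR quasi-likelihood unadjusted p = 0.019, adjusted p = 0.0986). Without antibiotic saline library 5, its lowest, the log2 change was 0.12 ± 0.0591 (edgeR adjusted p = 0.204).

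For Pde4d the antibiotic saline libraries ran from 64.6 through a median of 73.5 to 76.2 CPM. The morphine libraries stood at 78.1, 73.5, 87.8, 78.6 and 77.8 CPM. The ranges overlapped at library 2 of the morphine group alone, and all 5 were above the saline mean. The log2 change was 0.13 ± 0.0507 (edgeR quasi-likelihood unadjusted p = 0.02, adjusted p = 0.102), and the difference between both morphine changes, antibiotic minus water, was -0.08 ± 0.0717 (edgeR adjusted p = 0.68). The other 8 genes had log2 changes between -0.14 (Pde2a) and 0.09 (Pde10a).

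The third comparison put antibiotics against water in saline mice. None of the 10 passed in edgeR, against 1.41% of all genes, and 1 had an unadjusted p under 0.05, against 17.3%. Their median log2 change was -0.11, against 0.0038 for all genes, and 7 of the 10 were negative. The 5 most negative estimates were those of Pde7b (-0.28 ± 0.166), Pde1b (-0.27 ± 0.142), Pde10a (-0.25 ± 0.167), Pde1c (-0.20 ± 0.116) and Pde2a (-0.18 ± 0.0857), while Pde1a had the most positive (0.20 ± 0.127; without antibiotic saline library 5, 0.0904 ± 0.114, edgeR adjusted p = 0.754).

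Pde2a, which hydrolyses both nucleotides and is speeded by cGMP, had the smallest p of these. It ran from 895 through a median of 960.5 to 1111 CPM in water saline mice and from 714 through 882 to 1035 CPM in antibiotic saline mice. The ranges overlapped, and 1 of the 6 antibiotic libraries was above the water mean. The edgeR quasi-likelihood p was 0.0473 and the adjusted p 0.283. The summed level of the striatal markers had a median of 5817 CPM in water saline and 5160 CPM in antibiotic saline libraries, and all 12 had a negative change, with 0 called in edgeR and 1 at an unadjusted p under 0.05. Without antibiotic saline library 5 the log2 changes were -0.165 for Pde7b, -0.17 for Pde1b, -0.129 for Pde10a and Pde2a and -0.112 for Pde1c. Markers of other cells were called lower in edgeR in this contrast: 6 of 8 of oligodendrocytes, with a summed level of 5867 to 6804 CPM in water saline and 5014 to 5829 in antibiotic saline libraries, 5 of 8 of microglia (584.7 to 631.1 and 469.5 to 565.1 CPM) and 2 of 6 of oligodendrocyte precursors. Their part in the estimates of the members was not tested in this contrast. That of the striatal markers was not tested beyond a fit with the striatal score in the design, given below.

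The fourth comparison put antibiotics against water in morphine mice. It had the most calls across the transcriptome, 18% of all genes, and 0 of the 10 phosphodiesterases passed in edgeR. Pde2a alone had an unadjusted p under 0.05, against 31.3% of all genes. Of the microglial markers 7 of 8 (500.6 to 564.3 CPM in sum with water, 398.4 to 464.3 with antibiotics), of the precursor markers 5 of 6 and of the astrocyte markers 2 of 7 were called lower in edgeR. Also called lower were 2 of 8 of oligodendrocytes, 2 of 6 of endothelium and 1 of 6 of pericytes and smooth muscle. Their part in the estimates was not tested. The median log2 change was -0.09 over the members and 0.000836 over all genes, and 8 of the 10 changes were negative.

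For Pde2a the water morphine libraries stood at 828, 1017, 800.2, 1061 and 892 CPM. The antibiotic morphine libraries stood at 708, 865, 766, 744 and 868 CPM. All 5 of the latter were below the mean of the former, 920 ± 115 (SD, n = 5), and the ranges overlapped. The mean with antibiotics was 790.1 ± 72.9 CPM (SD, n = 5), a log2 change of -0.22 ± 0.0938 (95% interval -0.413 to -0.0251, edgeR quasi-likelihood unadjusted p = 0.0286, adjusted p = 0.109). Over the 4 groups Pde2a was highest with water and saline and lowest with both treatments. Pde8b, an enzyme with a high affinity for cAMP, had a log2 change of -0.12 ± 0.0857, Pde4a 0.15 ± 0.151 and Pde4d -0.0094 ± 0.0525.

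The last contrast tested whether the morphine change differed between antibiotic and water mice. None of the 10 genes passed in edgeR, against 0.467% of all genes, and 0 had an unadjusted p under 0.05, against 12.3%. The differences, antibiotic minus water, ran from -0.21 ± 0.188 for Pde1a to 0.21 ± 0.246 for Pde7b on the log2 scale. The comparisons share libraries: both morphine contrasts enter this difference, and the water saline group is the control for morphine in water mice and for antibiotics in saline mice, so their values are given side by side and not as independent evidence. DESeq2 and limma-voom each called 1 member, Pde4d, for morphine in water mice and 0 in the other contrasts.

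**Figure D2:**
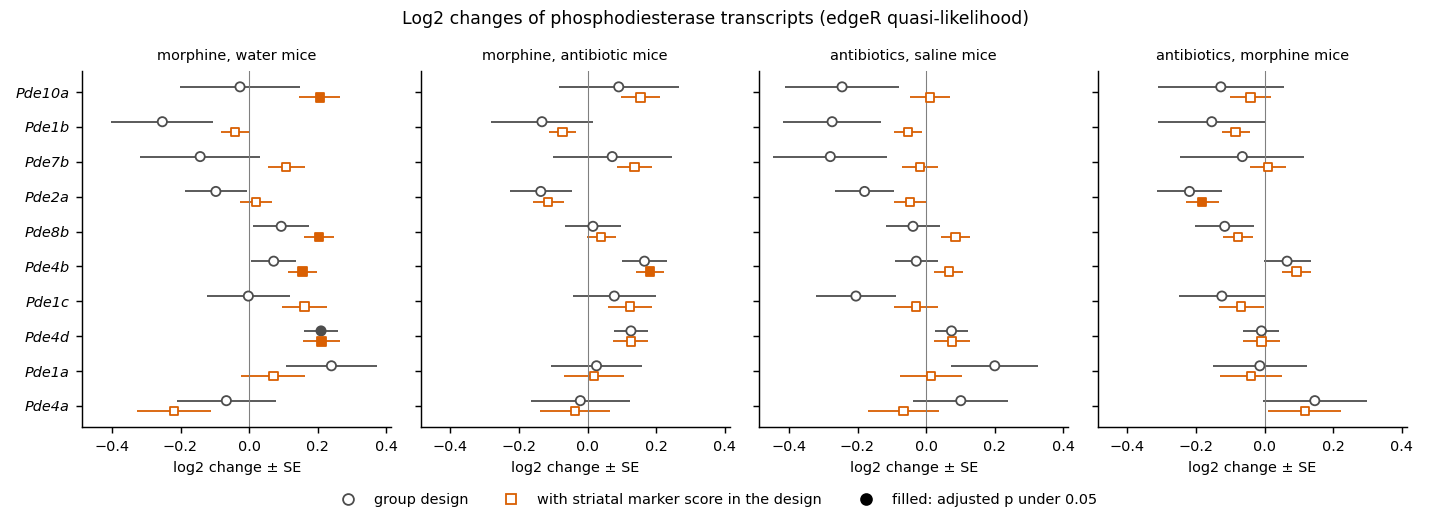
Log2 change (horizontal axes) with its SE for each gene in the 4 comparisons of groups. Circles are the group design and squares the design with the striatal score, and filled symbols have an adjusted p under 0.05. Pde4d in water mice is the filled circle at 0.21, and the bars of Pde10a, Pde1b and Pde7b are shorter with the score than without it.

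Within the groups, 7 of the 10 transcripts rose and 2 fell with the content of striatal projection neuron markers in a library. Each gene's log2 CPM was centred on its group mean and set against the striatal score centred in the same way, over 22 libraries. A total of 20 relations were tested, 10 genes with 2 scores, by a two-sided permutation test with 100000 resamples within groups. An unadjusted permutation p under 0.05 was reached by 9 of the 10 members and 29.3% of all genes against the striatal score. Against a second score, from the cortical and septal markers, it was reached by 6 of the 10 and 28.3% of all genes.

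Pde1b followed the score most closely (Pearson r = 0.976, Spearman rho = 0.983, permutation p = 1e-05, the smallest these resamples give, adjusted p = 4e-05). Pde7b (r = 0.963, rho = 0.966) and Pde10a (r = 0.947, rho = 0.927) were next, at the same permutation p and adjusted p. They were joined by Pde8b (r = 0.915, rho = 0.835, adjusted permutation p = 0.0001), Pde2a (0.892 and 0.942, adjusted permutation p = 4e-05), Pde1c (0.881 and 0.784, adjusted permutation p = 0.000143) and Pde4b (0.860 and 0.781, adjusted permutation p = 4e-05).

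Pde1a and Pde4a ran the other way. Pde1a had r = -0.740 and rho = -0.520 (permutation p = 0.00203, adjusted p = 0.00406), and Pde4a r = -0.704 and rho = -0.647 (permutation p = 0.00054, adjusted p = 0.00135). Pde4d was flat, with r = 0.018 and rho = 0.060 (permutation p = 0.937). Without the 2 libraries farthest from the median score, antibiotic saline 5 and water morphine 4, r was 0.698 to 0.971 for the 7 positive genes and -0.545 for Pde4a. For Pde1a it was -0.377 (permutation p = 0.123), so its relation rested on those libraries. In the groups of 6, Pde1a had r = 0.289 in water saline and -0.892 in antibiotic saline mice, while Pde1b had 0.995 and 0.967. In antibiotic morphine mice Pde1c spanned only 55.7 to 61.1 CPM.

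**Figure D3:**
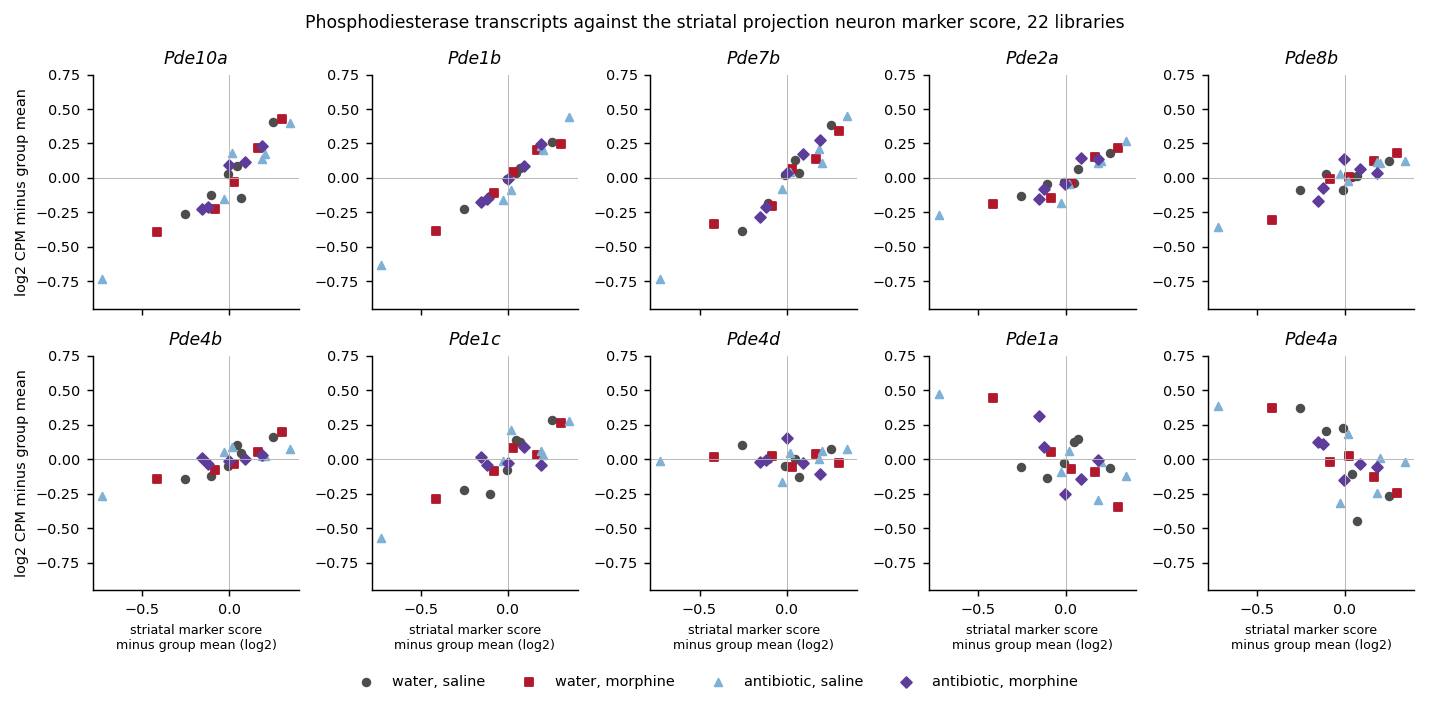
Log2 CPM of each gene minus its group mean (vertical axes) against the striatal marker score minus its group mean (horizontal axes) in 22 libraries, with symbols by group. Points rise from lower left to upper right for 7 genes, fall for Pde1a and Pde4a, and are flat for Pde4d. The leftmost triangle is antibiotic saline library 5 and the leftmost square water morphine library 4.

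The score of cortical and septal markers, such as Slc17a7 and Tbr1, gave the opposite sign for each member that passed with it. Pde4a rose with it (r = 0.723, rho = 0.688, permutation p = 0.00064, adjusted p = 0.00142), as did Pde1a (r = 0.581, rho = 0.561, permutation p = 0.0148, adjusted p = 0.0228). Pde8b (r = -0.682, rho = -0.633, adjusted permutation p = 0.00524), Pde1b (-0.580 and -0.543, 0.0161), Pde1c (-0.552 and -0.517, 0.0268) and Pde7b (-0.525 and -0.517, 0.0269) ran against it. Pde10a, Pde2a, Pde4b and Pde4d did not pass, with r between -0.446 and 0.132. Without the 2 libraries farthest from the median of this score, water morphine 6 and water saline 4, r was 0.728 for Pde4a, 0.786 for Pde1a and -0.823 for Pde8b. Without antibiotic saline library 5 the calls of Pde1a (r = 0.487), Pde1b (-0.479), Pde1c (-0.439) and Pde7b (-0.404) were lost. Without water morphine library 4 the same 4 were lost (r = 0.403, -0.476, -0.459 and -0.457), and without antibiotic saline library 3 those of Pde1c (-0.514) and Pde7b (-0.480).

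Across the 45 pairs of members, 16 had r above 0.8 and 16 had r under 0 (group-centred log2 CPM, 22 libraries that share their scaling). The closest pair was Pde10a with Pde7b (r = 0.962), a dual-substrate and a cAMP enzyme. Pde1c and Pde4b formed a pair at r = 0.939, each standing among the 3 genes most like the other of all 14564. The most opposed were Pde1a with Pde8b (r = -0.888) and, within the Pde4 family, Pde4a with Pde4b (r = -0.746).

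**Figure D4:**
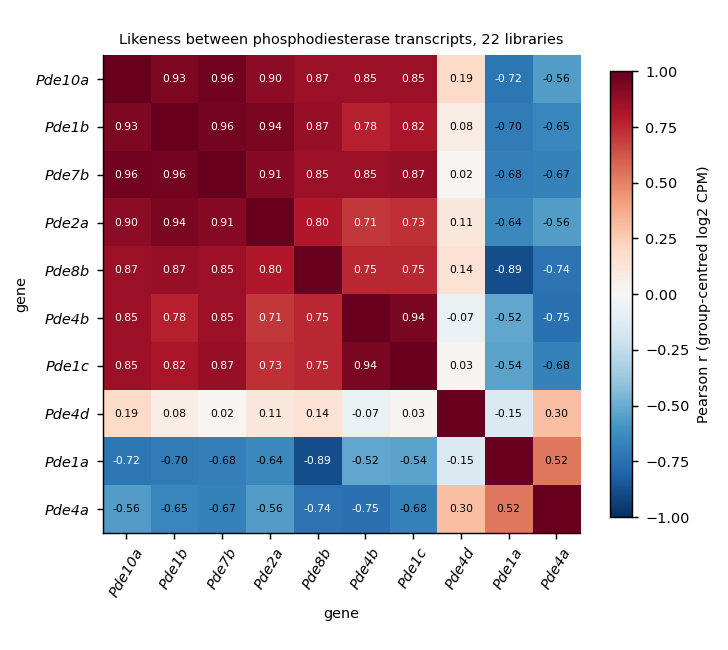
Pearson r between each pair of the 10 transcripts (both axes list the genes, colour and number give r) over 22 libraries, on log2 CPM centred on the group mean. A block of 7 genes has r from 0.71 upward, Pde4d lies between -0.147 and 0.297 with the other genes, and Pde1a and Pde4a are negative with the block.

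The genes most like each member, by the same r among all genes tested, included known striatal transcripts. Among those nearest to Pde1b were Syndig1l (0.984) and Adcy5 (0.981), the main adenylyl cyclase of the striatum. Among those nearest to Pde7b were Tbc1d8 (0.970) and Adcy5 (0.968). Pde10a was nearest to Slmap (0.968) and Strn (0.965), Pde2a to Adcy5 (0.952), Ngef (0.948) and Sez6 (0.945), and Pde8b to Rgs8 (0.949), Cacna2d3 (0.945) and Doc2b (0.944).

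Besides Pde1c, Pde4b was nearest to Npas2 (0.942), a clock transcription factor, and Cdk17 (0.927), and Pde1c to Epha4 (0.925) and Lrrtm3 (0.910). Among those nearest to Pde4a were Slc36a1 (0.944) and Nat8l (0.940), and Pde1a was nearest to Mpped1 (0.880), Ppp2r2b (0.879) and Pls3 (0.876). Pde4d had no close companion, with Ccdc110 at 0.781, Dhx33 at 0.752 and Cdh22 at 0.722.

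The start regions of genes that moved together and apart are shown for Pde1b and Pde10a, which tracked the striatal score, and Pde4a, which ran against it. Bases come from RefSeq (GRCm38.p6), 5′ to 3′ on the plus strand, up to 250 before an annotated start. They cover chr15:103502784-103503033 for Pde1b, chr17:8849735-8849984 for Pde10a and chr9:21165464-21165699 for Pde4a, each at 1 of the alternative starts of its gene. Capitals mark GC boxes (GGGCGG on either strand), the letters bound by Sp family factors, and would also mark the short form of the cAMP response element (TGACG on either strand), of which these stretches hold 0.
Pde1b: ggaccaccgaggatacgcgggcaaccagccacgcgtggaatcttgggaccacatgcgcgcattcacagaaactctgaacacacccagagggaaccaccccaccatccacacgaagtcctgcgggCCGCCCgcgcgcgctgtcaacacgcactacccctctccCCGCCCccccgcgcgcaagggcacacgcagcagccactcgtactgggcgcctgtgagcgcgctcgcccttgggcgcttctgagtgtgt
Pde10a: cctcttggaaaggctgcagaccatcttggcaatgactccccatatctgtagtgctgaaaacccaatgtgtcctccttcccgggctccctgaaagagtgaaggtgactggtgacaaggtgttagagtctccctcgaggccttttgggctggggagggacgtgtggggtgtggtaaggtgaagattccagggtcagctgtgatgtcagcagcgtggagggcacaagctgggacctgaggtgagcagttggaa
Pde4a: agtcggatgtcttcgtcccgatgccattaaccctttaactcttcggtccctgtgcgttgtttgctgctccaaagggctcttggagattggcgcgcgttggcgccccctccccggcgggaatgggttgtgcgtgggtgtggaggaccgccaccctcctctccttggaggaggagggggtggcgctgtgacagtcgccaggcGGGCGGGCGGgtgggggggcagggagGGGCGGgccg
The Pde1b stretch holds 2 GC boxes and 67.2% G and C, that of Pde4a 3 (2 of them overlapping) and 67.8%, and that of Pde10a 0 and 56%. These counts depend on the start shown. The window at the other Pde10a start holds 1 GC box, and those at the other Pde1b starts hold 0. At another start Pde4a has 1 GC box and 1 TGACG. The Pde4a stretch leaves out the last 14 bases of its window, which holds 4 GC boxes in full. The median of all 32851 such windows was 52.4%.

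All 10 members matched the RefSeq promoters, with 31 windows of 250 bases between them. The full cAMP response element TGACGTCA, the letters bound by CREB, was in 0 of the 31 windows and in 1.55% of all windows. Its shorter form TGACG was in 3 windows (9.68%), 1 each of Pde1a, Pde4a and Pde4b, against 17.8% of all. GC boxes were in 7 windows (22.6%, against 32.7%), and TATAAA in 2 (6.45%, against 12.4%), both of Pde1a. Counted by gene, 5 of the 10 members had a GC box in some window, against 35.4% of all genes. TGACG was in 3 of the 10, against 19.8%, and TATAAA in 1, against 14.3%. All 27025 genes had 32851 windows, fewer per gene than the members, and some windows of a member overlap. Neither kind of share was tested. These are matches of letters on both strands, not measured sites, and no match says only that the letters are not in that window.

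With the striatal score added to the design as a covariate, the standard errors of the 7 genes that rose with it became smaller, and more members were called. Those of Pde1a and Pde4a, which fell with it, also became smaller (0.133 to 0.0932 and 0.145 to 0.108 for morphine in water mice). That of Pde4d did not (0.0506 to 0.0536). For morphine in water mice 4 members were called higher in edgeR (8.95% of all genes in this design): Pde8b (log2 change 0.20 ± 0.044, adjusted p = 0.00623), Pde4d (0.21 ± 0.0536, adjusted p = 0.0165), Pde4b (0.15 ± 0.0431, adjusted p = 0.027) and Pde10a (0.21 ± 0.0596, adjusted p = 0.0321). The estimate of Pde10a without the score was -0.03 ± 0.175, so its direction turned. That of Pde4d was 0.21 in both fits. The score itself averaged 0.19 in water saline and -0.04 in water morphine libraries, so a call in this design is higher relative to the score. Pde10a averaged 1063.2 CPM with saline and 1043.5 CPM with morphine.

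Under the same design 1 member was called with morphine in antibiotic mice, against 17.2% of all genes: Pde4b, higher (0.18 ± 0.0409, edgeR adjusted p = 0.00387). With antibiotics in morphine mice 1 was called, against 22.6%: Pde2a, lower (-0.18 ± 0.0477, edgeR adjusted p = 0.00759). In antibiotic against water saline mice 0 members were called in edgeR, against 0.769% of all genes, and Pde1b stood at -0.05 ± 0.0403, Pde7b at -0.02 ± 0.0521 and Pde10a at 0.01 ± 0.0583. With the striatal score and the length slope together in the design, a fit chosen after seeing the data, 0 members and 0% of all genes were called for morphine in water mice (Pde10a 0.0033 ± 0.0859, Pde4d 0.18 ± 0.09, edgeR adjusted p = 0.992 and 0.481) and Pde2a, with 23.6% of all genes, was called with antibiotics in morphine mice (-0.18 ± 0.0476, edgeR adjusted p = 0.00799). Without the 2 libraries of lowest striatal score, also chosen after seeing the data, Pde2a (-0.27 ± 0.0866, edgeR adjusted p = 0.0328) and Pde8b (-0.19 ± 0.0594, edgeR adjusted p = 0.0288) were called lower there, against 21% of all genes.

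Of the other 14 phosphodiesterase genes looked up, 9 passed the filter, and the 5 that did not were retinal Pde6 subunits. In water mice 0 of the 9 passed with morphine in edgeR, against 6.58% of all genes, with 3 at an unadjusted p under 0.05, against 22.7%. Pde11a, a dual-substrate enzyme, stood at 3.98 CPM with saline and 7.55 with morphine (log2 change 0.89 ± 0.314, edgeR adjusted p = 0.0916). In antibiotic mice Pde6d, a prenyl-binding chaperone rather than an enzyme, fell with morphine from 49.1 ± 2.76 to 41.7 ± 2.93 CPM (log2 change -0.23 ± 0.0531, edgeR adjusted p = 0.0058). In morphine mice Pde3b, the insulin-regulated enzyme inhibited by cGMP, fell with antibiotics from 12.8 ± 1.67 to 9.34 ± 0.781 CPM (log2 change -0.44 ± 0.108, edgeR adjusted p = 0.00583). Pde4c, another cAMP-specific enzyme, rose there from 1.68 ± 0.712 to 3.08 ± 0.749 CPM (log2 change 0.84 ± 0.232, edgeR adjusted p = 0.0145). Calls over all genes were 13% with morphine in antibiotic mice and 18% with antibiotics in morphine mice.

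Of 9 tested adenylyl cyclases, which make the cAMP that phosphodiesterases break down, 0 passed with morphine in water mice (6.58% of all genes), 2 with morphine in antibiotic mice (13%) and 3 with antibiotics in morphine mice (18%). In antibiotic mice Adcy9 rose with morphine from 122 ± 15.5 to 155 ± 8.56 CPM (log2 change 0.35 ± 0.0717, edgeR adjusted p = 0.00302) and Adcy4 fell (-0.81 ± 0.177, edgeR adjusted p = 0.00445). Counts of Adcy4 reached at most 80 in a library. With antibiotics in morphine mice Adcy9 rose by 0.49 ± 0.0751 on the log2 scale (edgeR adjusted p = 0.000109), while Adcy4 (-0.81 ± 0.181) and Adcy3 (-0.19 ± 0.0591) fell. Both contrasts include the antibiotic morphine group. Of 9 guanylyl cyclase and nitric oxide synthase genes, Nos1, the neuronal nitric oxide synthase, rose with morphine in water mice from 43.5 ± 5.53 to 57.7 ± 3.54 CPM (log2 change 0.41 ± 0.0829, edgeR adjusted p = 0.00614). Nos1 was also 1 of 8 markers of striatal interneurons looked up, of which edgeR called 1 higher and 2 lower in this contrast. The part of these cells in the rise of Nos1 was not tested.

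Among 11 receptors and G proteins upstream of cAMP, Oprm1 alone passed with morphine in water mice (higher, with at most 112 counts in a library). Gnai2, an inhibitory G protein subunit, alone passed in antibiotic mice (log2 change -0.23 ± 0.054, edgeR adjusted p = 0.00707), and Gnal and Gnai2 with antibiotics in morphine mice, both lower. Gnal, the stimulatory subunit of striatal neurons, stood at 892 ± 95.1 and 734 ± 45.4 CPM there (log2 change -0.28 ± 0.0922, edgeR adjusted p = 0.0375). In the order of these contrasts 6.58%, 13% and 18% of all genes were called.

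Of 11 subunits and inhibitors of the cAMP and cGMP kinases, Pkig, an inhibitor of protein kinase A, fell with morphine in water mice (log2 change -0.24 ± 0.0502, edgeR adjusted p = 0.00834) and in antibiotic mice (-0.27 ± 0.0506, edgeR adjusted p = 0.00163). Pkia, another inhibitor of the kinase, rose with morphine in antibiotic mice (0.28 ± 0.0712, edgeR adjusted p = 0.0137). With antibiotics in morphine mice Pkia rose, and Pkig and Prkaca, a catalytic subunit, fell. Of 8 other genes listed as effectors of cyclic nucleotides, Cnga3, a gated channel subunit, rose with morphine in water mice (log2 change 1.70 ± 0.5, edgeR adjusted p = 0.0412) from a level of 0.273 CPM. Hcn3, a pacemaker channel subunit, fell with antibiotics in morphine mice from 26.3 ± 5.37 to 15.9 ± 2.05 CPM (log2 change -0.72 ± 0.131, edgeR adjusted p = 0.00053). None of the 9 kinase substrates and CREB factors passed in edgeR in any contrast, with 0 to 2 at an unadjusted p under 0.05 in each. Shares of all genes called were 6.58% with morphine in water mice, 13% in antibiotic mice and 18% with antibiotics in morphine mice.

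Of 11 tested A-kinase anchoring proteins, which hold the kinase and phosphodiesterases in place, Akap6, an anchor known to bind Pde4d, rose with morphine in water mice from 286 ± 19.1 to 340.4 ± 14 CPM (log2 change 0.25 ± 0.0566, edgeR adjusted p = 0.0115). Akap11 rose with morphine in water mice (0.22 ± 0.0565, edgeR adjusted p = 0.0253) and in antibiotic mice (0.31 ± 0.0565, edgeR adjusted p = 0.00114). In antibiotic mice Akap8 also rose and Akap1 fell. With antibiotics in morphine mice Akap8 rose and Akap6 fell (-0.18 ± 0.0592, edgeR adjusted p = 0.0403). The median log2 change of the 11 anchors was 0.15 for morphine in water mice, against -0.000167 for all genes. With the length slope in the design 0 of all genes were called in this contrast, so the calls of Akap6 and Akap11 there were lost. The part of transcript length in the changes of the anchors was not tested. Among all genes 6.58% were called with morphine in water mice, 13% in antibiotic mice and 18% with antibiotics in morphine mice.

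Of 9 direct partners of the enzymes, 2 passed with morphine in water mice (6.58% of all genes), 3 in antibiotic mice (13%) and 1 with antibiotics in morphine mice (18%), all lower. Calm2, which encodes the calmodulin that activates Pde1 enzymes, fell in water mice (-0.19 ± 0.0557, edgeR adjusted p = 0.0371), and Calm3, which encodes the same protein, in antibiotic mice (-0.18 ± 0.0549, edgeR adjusted p = 0.0305). Gnb2l1 (Rack1), a scaffold of Pde4d, fell with morphine in antibiotic mice (-0.17 ± 0.0477, edgeR adjusted p = 0.0222), and Arrb1, the beta-arrestin that carries Pde4 enzymes to receptors, fell with antibiotics in morphine mice (-0.13 ± 0.0422, edgeR adjusted p = 0.0286). The median of these 9 partners was negative in every contrast, between -0.03 and -0.09. With antibiotics in saline mice, and for the difference between both morphine changes, 0 genes of any of these lists passed in edgeR, with 0 to 3 per list and direction at an unadjusted p under 0.05. Over all genes 1.41% and 0.467% were called there, and 17.3% and 12.3% had an unadjusted p under 0.05.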

How the data were processed

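Bulk RNA of the accumbens was copied to cDNA with the SMARTer kit, per the labels' protocols. The submitters' processing notes name STAR 2.4.0, FastQC and edgeR. Neither genome build, annotation nor strand setting is given in the sources used here. The authors deposited raw counts per gene, used throughout, and a table of normalised signal, which equals the counts times a constant per library (largest relative deviation 7.16e-09) and was not tested. Entries that name no gene held 20.6% to 26.4% of a library's 11789713 to 19755139 counts and were removed. Of the deposited gene names, 27 had become dates.

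In R 4.3.3, edgeR 4.0.16 kept 14564 genes (filterByExpr), scaled them by TMM and fitted the 4 groups with robust quasi-likelihood. Tests were two-sided, with Benjamini-Hochberg adjusted p under 0.05 over all genes. Log2 CPM used a prior count of 2. Coding transcript lengths (GENCODE vM21) matched 13892 genes (95.4%). Named are all members, up to 3 genes past the threshold per pathway list and contrast, and the 3 genes most like each member, leaving out clone and predicted names. A few genes that these rules name are not reported here. Pde11a was chosen after its values were seen. The members, lists and rules were chosen with earlier results of these data known. Same-numbered libraries of different groups did not deviate together on average, so numbers were not taken as pairs in the main fit. Counts of 50 pairs of libraries within groups differed by 3.19 to 22.9 times sampling noise. Alternatives covered size factors, DESeq2 1.42.0, limma-voom 3.58.1, filters, samples in the fit, a replicate block, covariates, threshold, prior count and leaving out each library. The test was tried on simulated counts of 14468 genes with 200 changed. For morphine in water mice it recovered 5 of 50 genes changed 1.15-fold and 24 of 50 changed 1.25-fold. It recovered 31 of 49 changed 1.5-fold and 43 of 50 changed 2-fold, with 5 false calls. These genes were drawn from all levels, so the shares are not those of the members.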

Additional observations from a re-analysis of the deposited data

Results flagged for a closer look

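Of 40 combinations of a gene and a group, 2 held a library far from the rest of its group, both in antibiotic mice given saline. Library 5 of that group held 191.03 CPM of Pde4b, where the other 5 held 233.09 to 244.32, and 126.63 CPM of Pde8b, where the others held 160.02 to 177.23. The gap to the nearest library was 0.789 of the whole range of the group for Pde4b and 0.660 for Pde8b, above the critical value of 0.625 for 6 samples. Chance flags about 1 in 20 groups, which is as many as were found here. The same library had the lowest striatal score of all 22.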

How the results depend on the processing

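The rise of Pde4d with morphine in water mice kept its direction in all 35 settings and passed in 33, with a log2 change of 0.175 to 0.243. It was lost only with the length slope in the design, alone or with the striatal score, where 0 members and 0 of all genes passed. The number of members called moved in these settings: 4 for morphine in water mice and 1 each for morphine in antibiotic mice and antibiotics in morphine mice with the striatal score, 1 for morphine in antibiotic mice with the cortical score or at an adjusted p under 0.1, and, chosen after seeing the data, 2 for antibiotics in morphine mice without the 2 libraries of lowest striatal score and 1 there with the striatal score and length slope together. Several log2 changes turned sign. Among those outside the fits that left out 1 library, Pde10a for morphine in water mice with the striatal score is the only one that passed, and the causes were not tested. Pde1c for morphine in water mice was 0.000511 in limma-voom, 0.00117 with no filter, 0.000449 with at least 1 CPM in 5 libraries and 0.004 with only both groups in the fit. With the length slope in the design the values were for morphine in water mice Pde4b -0.00785, for morphine in antibiotic mice Pde10a -0.0353, Pde1a -0.0404 and Pde1c -0.0596. With the striatal score the values were for morphine in water mice Pde10a 0.206, Pde1c 0.161, Pde2a 0.0201 and Pde7b 0.108, for antibiotics in saline mice Pde10a 0.0108, Pde4a -0.0654, Pde4b 0.066 and Pde8b 0.0861, for antibiotics in morphine mice Pde7b 0.00917, for the difference between the morphine changes Pde10a -0.0526, Pde1b -0.0317 and Pde1c -0.038. With the cortical score the values were for morphine in water mice Pde4a 0.0281, for antibiotics in saline mice Pde8b 0.0046, for antibiotics in morphine mice Pde10a 0.013, Pde1b 0.0278, Pde1c 0.0112, Pde4a -0.0594, Pde7b 0.115 and Pde8b 0.00263, for the difference between the morphine changes Pde2a 0.0141 and Pde4a -0.0774. Without the 2 libraries of lowest striatal score the values were for morphine in water mice Pde10a 0.0664 and Pde1c 0.071, for morphine in antibiotic mice Pde10a -0.0264, Pde1c -0.0164, Pde4a 0.0627, Pde7b -0.0441 and Pde8b -0.0491, for antibiotics in saline mice Pde4b 0.0252 and Pde8b 0.0304, for antibiotics in morphine mice Pde1a 0.116, for the difference between the morphine changes Pde10a -0.0928, Pde1a 0.0206, Pde1b -0.0744 and Pde1c -0.0874. With striatal score and length slope together the values were for morphine in water mice Pde10a 0.00325, Pde1a -0.00585, Pde1b 0.0263 and Pde2a 0.0482, for morphine in antibiotic mice Pde1a -0.0343 and Pde1c -0.024, for antibiotics in saline mice Pde1a -0.0147, Pde4a -0.143, Pde4b 0.0334 and Pde8b 0.113, for antibiotics in morphine mice Pde7b 0.00284, for the difference between the morphine changes Pde1b -0.0526. Leaving out 1 library at a time, changes that crossed 0 ran for morphine in water mice Pde10a -0.146 to 0.0655, Pde1c -0.0744 to 0.0661 and Pde4a -0.174 to 0.0145, for morphine in antibiotic mice Pde10a -0.0247 to 0.173, Pde1a -0.0589 to 0.136, Pde1c -0.0146 to 0.132, Pde4a -0.0796 to 0.0646, Pde7b -0.0426 to 0.168 and Pde8b -0.0475 to 0.0552, for antibiotics in saline mice Pde4b -0.0562 to 0.0197 and Pde8b -0.0625 to 0.025, for antibiotics in morphine mice Pde1a -0.0986 to 0.117, Pde4d -0.0492 to 0.0152 and Pde7b -0.143 to 0.0271, for the difference between the morphine changes Pde1c -0.0125 to 0.152, Pde2a -0.09 to 0.0171 and Pde4a -0.0358 to 0.152. The relation of Pde4d ran from r = -0.074 to 0.298 for the cortical and -0.068 to 0.11 for the striatal score, and 4 cortical relations lost their call, with r from 0.403 to 0.746 for Pde1a, -0.625 to -0.476 for Pde1b, -0.611 to -0.439 for Pde1c and -0.591 to -0.404 for Pde7b. That of Pde2a (-0.528 to -0.339) gained one without water morphine library 2.

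The labels used here do not say what the replicate numbers stand for. Correlations of the 25 same-numbered pairs were -0.478 to 0.353, with 8 over 0.1. Their mean was 0.00238, against -0.000173 for other pairs. A mean over pairs cannot tell whether some same-numbered libraries were handled together. With the replicate block 1 member (Pde4d) was called for morphine in water mice and 0 in the other contrasts, 281 of all genes were called in place of 959, 105 for antibiotics in saline mice and 10 for the difference, and signs turned for morphine in water mice Pde4a 0.13, for morphine in antibiotic mice Pde4a 0.0205 and for the difference between the morphine changes Pde2a 0.00788 and Pde4a -0.109.

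Counts over all genes that moved by more than 1.5 times were, for morphine in water mice, 1442 with the cortical score and 1685 at an adjusted p under 0.1, and for morphine in antibiotic mice 1187 with only both groups, 141 with the length slope and 375 with slope and striatal score. For antibiotics in saline mice they were 412 in DESeq2, 67 with only both groups, 46 with the slope, 112 with the striatal score, 323 with the cortical score, 518 at an adjusted p under 0.1, 129 without the 2 lowest striatal libraries, 74 without the 2 libraries of highest Malat1 and 12 with slope and striatal score. For the difference they were 188, 168, 153, 146, 145 and 226 with DESeq2, striatal score, cortical score, adjusted p under 0.1, without the 2 lowest striatal libraries and with slope and striatal score. Without 1 library the counts ran from 509 (without water morphine 2) to 1118, 1084 (without antibiotic saline 1) to 2048, 48 (without antibiotic saline 4) to 409 (without antibiotic saline 1), 1877 to 2824 and 28 (without water morphine 2) to 100, in the order of the comparisons. At 9357299 to 15330947 counts in genes per library, changes within the 95% intervals of members that did not pass could not be told from none.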
